A study of Homo sapiens with 32 samples.

Results

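HNF4α peaks were examined around 6 genes of the basal and squamous program: TP63, KRT5, KRT6A, KRT14, KRT17 and S100A2. They are known markers of that program and were chosen by name, as 6 of 20037 protein-coding genes in the RefSeq table for GRCh38.p14. The choice was made with earlier results of these data known. A peak was assigned to a gene when its summit, the base of highest signal in the peak, lay within 50 kb of the gene's span. The windows of KRT5 and KRT6A overlap, as do those of KRT14 and KRT17, so the 6 genes form 4 loci covering 780.784 kb. Over the 18 peak lists these loci held 232 peaks. Overlapping peaks of different lists merged into 50 sites, of 78729 sites genome-wide.

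The lists came from chromatin immunoprecipitation sequencing (ChIP-seq) in 3 established human pancreatic ductal adenocarcinoma cell lines, with 2 libraries in each of 9 groups. Panc10.05 and BxPC3 carried a doxycycline-inducible HNF4α isoform. In Panc10.05, P1-α2 was induced with 25 ng/mL and P2-α8 with 12.5 ng/mL doxycycline, whereas both isoforms were induced with 500 ng/mL in BxPC3. The titles of the BxPC3 P2-α8 libraries pair α8 with P1, and the genotype label was used. The labels give no doxycycline dose for ASPC1, which carried a control guide (sgNC) or a guide named for a promoter of HNF4A (sgP1 or sgP2). An antibody to all HNF4α isoforms (pan) was used in every line. An antibody specific to P1 isoforms was also used in ASPC1 sgNC and sgP2. No list of uninduced cells was analysed here, and the 14 input libraries without antibody were not analysed. Nothing in the labels says that the libraries of a group came from separate cultures, so p-values measure only the spread between these libraries.

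HNF4α is a nuclear receptor known for driving gut and liver gene programs, and in pancreatic cancer it is associated with the classical subtype. Its gene has a P1 and a P2 promoter, whose products differ at the amino-terminal end. TP63 encodes p63, the transcription factor that establishes basal and squamous epithelium. KRT5 and KRT14 encode the keratin pair of basal cells, KRT6A and KRT17 encode keratins of activated or stressed epithelium, and S100A2 encodes a calcium-binding protein of squamous epithelium. A peak near a gene records where HNF4α was enriched on chromatin and says nothing of the gene's expression, which these lists do not measure.

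The start regions of 3 genes are shown because the peaks lie in a different position relative to each of them. Each sequence is the 250 bases before a transcript start in RefSeq (GRCh38.p14), written 5′ to 3′ along the gene, with capitals marking bases that lie inside peaks of 3 or more lists. The TP63 region is chr3:189631139-189631388 on the plus strand, the KRT5 region is chr12:52520395-52520644 on the minus strand, and the S100A16 region is chr1:153609356-153609605 on the minus strand, before an alternative start of that neighbour of S100A2.
TP63: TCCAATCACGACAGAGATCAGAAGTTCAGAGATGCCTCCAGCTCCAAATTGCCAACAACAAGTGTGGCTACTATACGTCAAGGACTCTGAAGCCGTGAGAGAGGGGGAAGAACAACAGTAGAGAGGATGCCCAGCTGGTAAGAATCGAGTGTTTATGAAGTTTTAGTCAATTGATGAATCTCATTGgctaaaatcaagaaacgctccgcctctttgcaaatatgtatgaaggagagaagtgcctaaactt
KRT5: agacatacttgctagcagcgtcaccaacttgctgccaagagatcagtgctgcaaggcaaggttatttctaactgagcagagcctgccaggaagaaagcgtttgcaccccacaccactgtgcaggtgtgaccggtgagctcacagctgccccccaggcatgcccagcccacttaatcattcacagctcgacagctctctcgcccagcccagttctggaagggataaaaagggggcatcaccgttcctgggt
S100A16: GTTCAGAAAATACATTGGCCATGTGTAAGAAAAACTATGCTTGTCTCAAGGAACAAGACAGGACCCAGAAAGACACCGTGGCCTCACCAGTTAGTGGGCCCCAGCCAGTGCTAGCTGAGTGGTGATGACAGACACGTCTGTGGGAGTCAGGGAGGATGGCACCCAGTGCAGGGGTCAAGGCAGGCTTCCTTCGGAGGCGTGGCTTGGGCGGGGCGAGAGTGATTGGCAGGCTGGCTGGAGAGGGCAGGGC
At TP63, 186 of the 250 bases were covered by peaks of 3 or more lists and 6 lists had a peak over the region, with summits 248 to 338 bp before the start. The KRT5 region was covered by 0 lists. Summits in 8 lists lay beyond it, 757 to 824 bp before the start. At S100A16 all 250 bases were covered, and 17 lists had a summit 370 to 423 bp inside the gene from that start. Neither CAAAGNNCA nor AGGTCA, searched on both strands, was present in any of the 3 regions. CAAAGNNCA occurred in 4.43% and AGGTCA in 12.1% of 34943 RefSeq promoters of that length. These letters describe the promoter regions only, since the sequence under the other sites was not used here. Start regions of S100A2 itself were also examined and are not shown. The one before the start at 153565844 was overlapped by a peak in 1 list, and the one before 153563887 in 0 lists.

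Every induced list and every ASPC1 pan list held peaks at these loci. Of the 50 sites, 27 were found in induced lists and no ASPC1 pan list (64.4% of all sites), 10 in ASPC1 pan lists and no induced list (12.3%), and 13 in both. Of the 40 sites in induced lists, 4 were in all 8 (8.22%): 1 by KRT5, 1 inside TP63, 1 beyond TP63 and 1 inside S100A16. In Panc10.05 P1-α2 the 2 libraries had 16 and 24 peaks at the 6 genes, and in Panc10.05 P2-α8 they had 28 and 22. In BxPC3 P1-α2 there were 27 and 23 peaks, and in BxPC3 P2-α8 there were 9 and 14. The pan antibody in ASPC1 gave 19 and 9 peaks with sgNC, 7 and 9 with sgP1, and 7 and 11 with sgP2. The P1 antibody gave 1 and 0 peaks with sgNC and 3 and 3 with sgP2. The whole lists held 260 to 41808 peaks. Per 10000 peaks of a list, the 14 pan lists held between 4.99 and 9.55 peaks at the 6 genes. The read depth behind the lists is unknown. The lowest −log10 q in a list was just above 8 in Panc10.05 and BxPC3 and just above 2 in ASPC1, and the library names carry a different number prefix in each line, so peak numbers were not tested between ASPC1 and the induced lines.

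**Figure D1:**
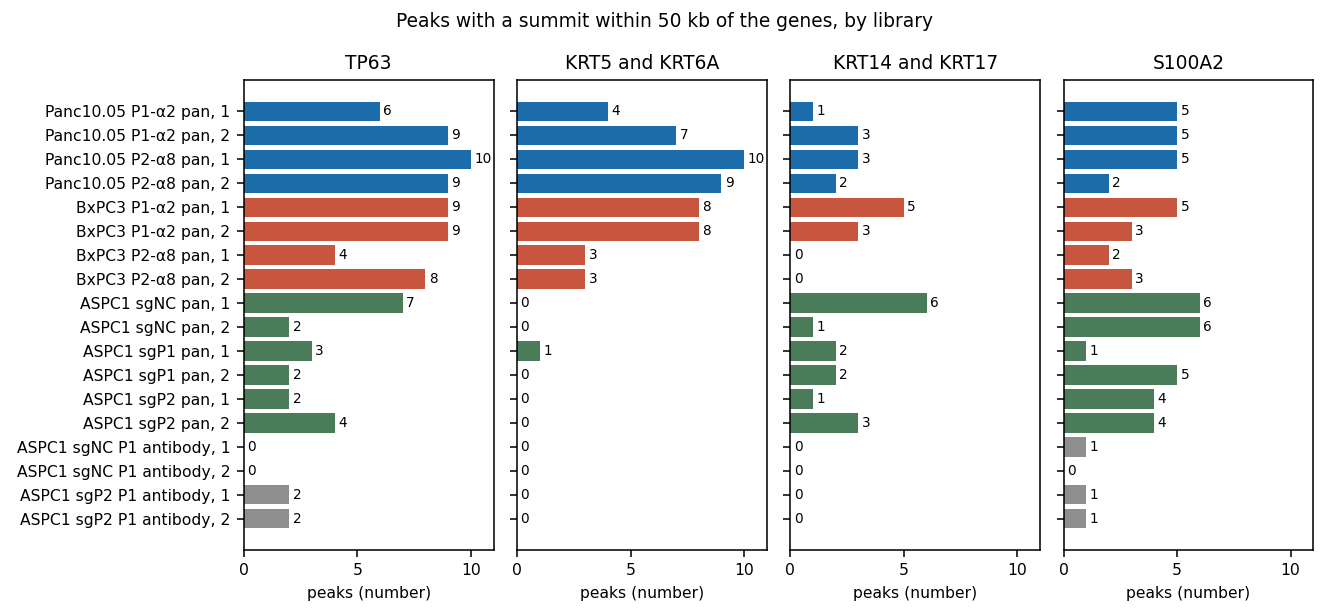
Number of HNF4α peaks with a summit within 50 kb of TP63, of KRT5 or KRT6A, of KRT14 or KRT17, and of S100A2, in each of the 18 libraries; each bar is 1 library and starts at 0. At KRT5 and KRT6A the induced lists held 3 to 10 peaks, whereas 5 of 6 ASPC1 pan lists held 0.

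The clearest contrast between lines was at KRT5 and KRT6A, the basal and the stress-associated keratin on chromosome 12. The 8 induced lists held 4, 7, 10 and 9 peaks there in Panc10.05 and 8, 8, 3 and 3 in BxPC3, in the order P1-α2 then P2-α8. The 6 ASPC1 pan lists held 0 peaks except for 1 peak in sgP1 replicate 1, and the 4 P1 antibody lists held 0. Both genes had a peak within 50 kb in all 8 induced lists and in at most 1 of the 6 ASPC1 pan lists. That pattern was described after its values were seen, and 4.95% of all protein-coding genes showed it. The ASPC1 lists reached down to lower −log10 q values than the induced lists, and whatever the number prefix of the library names stands for cannot be told apart from the line.

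Of the 12 sites at KRT5 and KRT6A, 11 were found only in induced lists. Of all sites, 64.4% were in induced lists and no ASPC1 pan list. Of the 12, 9 were in both libraries of at least 1 group, a property that was not counted over all sites. The site nearest the KRT5 start, at chromosome 12 from 52520930 to 52521527, was present in all 8 induced lists and in no ASPC1 list. Sites in all 8 induced and no ASPC1 pan list made up 2.45% of all sites and 2 of the 50 sites here. The fold enrichment at this KRT5 site, as deposited by the authors, was 8.21 and 8.15 in Panc10.05 P1-α2, 11.1 and 7.40 in Panc10.05 P2-α8, 9.55 and 10.2 in BxPC3 P1-α2, and 5.97 and 6.71 in BxPC3 P2-α8. To set peaks beside the rest of their own list, each was given a percentile, its position by fold enrichment among all peaks of that list, with 100 the highest. By this measure the KRT5 site stood at 10.0 and 8.56 in Panc10.05 P1-α2, 40.3 and 10.8 in Panc10.05 P2-α8, 32.4 and 50.9 in BxPC3 P1-α2, and 4.66 and 19.6 in BxPC3 P2-α8. By fold enrichment it was thus a recurrent peak that ranked low in most lists. Ranked by the authors' −log10 p instead, it stood at 16.9 and 2.90 in Panc10.05 P1-α2, 63.3 and 34.8 in Panc10.05 P2-α8, 45.0 and 61.4 in BxPC3 P1-α2, and 9.79 and 49.3 in BxPC3 P2-α8, so its low rank depends on the measure.

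Another KRT5 site, inside the span of the gene from 52518398 to 52518902, differed by isoform in opposite ways between the lines. It was at percentiles 19.2 and 54.3 in Panc10.05 P2-α8 and at 86.4 and 95.1 in BxPC3 P1-α2, and it was absent from both Panc10.05 P1-α2 and both BxPC3 P2-α8 lists. That combination was seen at 0.832% of the sites of the induced lists and at 1 of 40 at these loci. Doxycycline dose differed between the isoforms in Panc10.05 and between the lines, and cannot be told apart from them. When the 8 lists were cut to equal length by fold enrichment, the site was left in both BxPC3 P1-α2 lists and in no other list. When lists were cut to equal length only within each line, it was also left in Panc10.05 P2-α8 replicate 2.

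Nearer KRT6A, 2 sites that recurred in both libraries of a group lay beyond its upper end. A peak still closer to the gene, 0.959 kb away, was in BxPC3 P1-α2 replicate 1 alone. The first, from 52494349 to 52495597 and 1.80 kb from the gene, was in all 4 BxPC3 lists, at percentiles 89.8 and 84.8 with P1-α2 and 28.1 and 87.4 with P2-α8. In Panc10.05 it was present with P2-α8 alone, at 74.1 and 59.1. The second, from 52496411 to 52496964 and 3.44 kb from the gene, was in all 4 Panc10.05 lists and in no BxPC3 list. Its percentiles were 36 and 38.4 with P1-α2 and 66.4 and 12.9 with P2-α8. Sites in all 4 Panc10.05 and no BxPC3 list made up 5.54% of the sites of the induced lists and 1 of 40 at these loci. KRT6A, KRT6B and KRT6C are near-identical copies, as are parts of KRT14, KRT16 and KRT17. How reads shared between copies were placed is not given in the sources used here, so peaks over these copies are uncertain as to which copy they belong to.

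On the KRT6B side, 38.7 kb from KRT6A, a site inside KRT6B from 52448302 to 52448790 ranked high with BxPC3 P1-α2, at percentiles 90.4 and 89.5, and reached 62.1 in BxPC3 P2-α8 replicate 2. In Panc10.05 it stood at 28.4 in P1-α2 replicate 2 and at 42.4 and 90.1 with P2-α8. A neighbouring site from 52442465 to 52443196 was weaker, at 3.36 and 21.0 with BxPC3 P1-α2, 49.0 in Panc10.05 P1-α2 replicate 2, and 2.54 and 14.2 with Panc10.05 P2-α8. Neither site was in any ASPC1 list.

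Beyond KRT5, toward the hair-follicle keratin genes KRT71 and KRT74, 3 further sites were found. The site inside KRT71, from 52551325 to 52552162, was at percentiles 57.3 and 61.8 with Panc10.05 P1-α2 and 94.3 and 93.1 with Panc10.05 P2-α8, but at 0.862 and 5.69 with BxPC3 P1-α2. It was absent with BxPC3 P2-α8. The site from 52537398 to 52537968 was at 74.1 and 71.7 with Panc10.05 P2-α8 and at 21.4 in BxPC3 P1-α2 replicate 2. The site from 52562008 to 52562691, 41.9 kb from KRT5, was in 7 induced lists and held the single ASPC1 peak of this locus. Its percentiles were 84.3 and 71.3 with Panc10.05 P1-α2, 63.6 and 38.9 with P2-α8, 38 and 63.4 with BxPC3 P1-α2, 49.3 in BxPC3 P2-α8 replicate 1, and 22.0 in ASPC1 sgP1 replicate 1. The other 3 of the 12 sites were each in a single list.

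**Figure D2:**
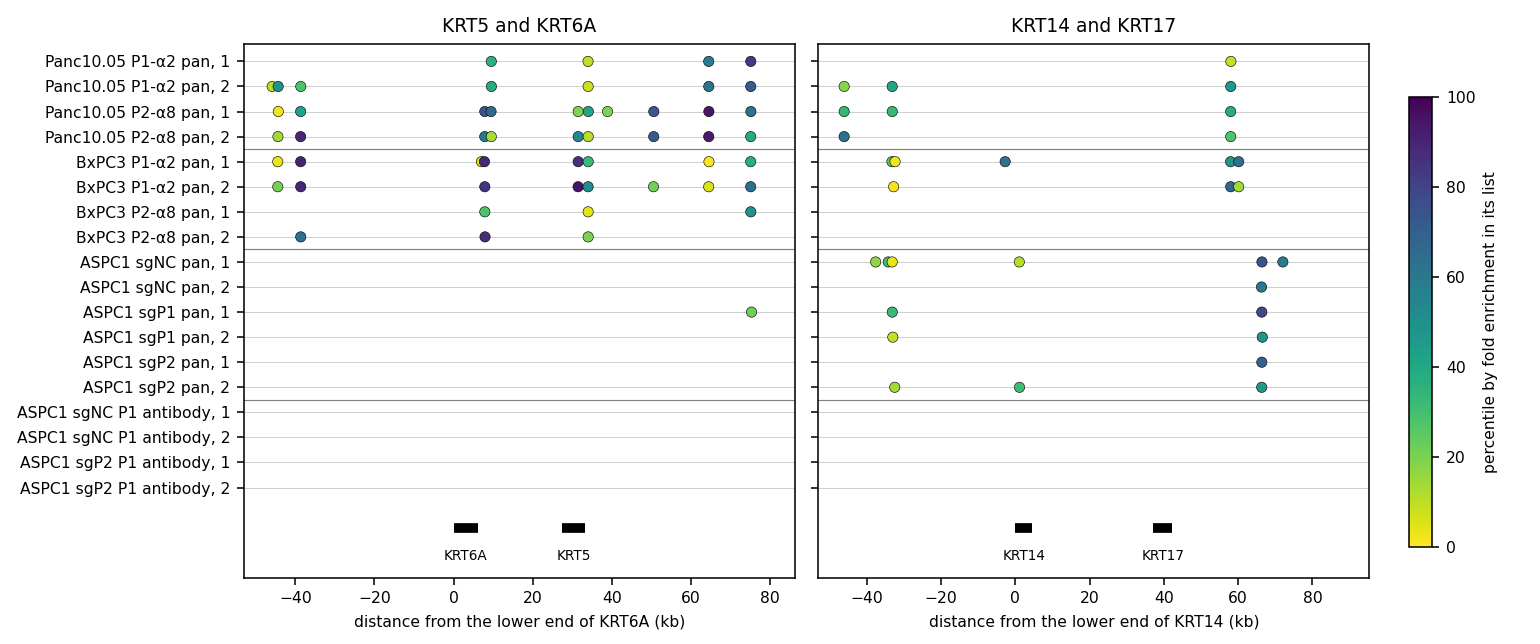
Peak summits at KRT6A and KRT5 and at KRT14 and KRT17 in the 18 lists, by distance in kb from the lower end of the lowest gene of each locus; 1 row is 1 library, and colour gives the percentile by fold enrichment in its list. Peaks near KRT5 and KRT6A fill the induced rows and leave the ASPC1 rows nearly empty, and a column of 6 ASPC1 pan peaks stands 24.1 kb beyond KRT17.

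TP63, the regulator of the program, had peaks in all 14 pan lists, at partly different positions in different lines. The lists held 6 and 9 peaks with Panc10.05 P1-α2, 10 and 9 with Panc10.05 P2-α8, 9 and 9 with BxPC3 P1-α2, and 4 and 8 with BxPC3 P2-α8. With the pan antibody in ASPC1 there were 7 and 2 peaks with sgNC, 3 and 2 with sgP1, and 2 and 4 with sgP2. The P1 antibody gave 0 and 0 peaks with sgNC and 2 and 2 with sgP2. TP63 and S100A2 were the 2 members with a peak in all 14 pan lists, a property shared by 29.6% of protein-coding genes. In ASPC1 sgP1 replicate 1, S100A2 was counted only through the site inside S100A16, 43.1 kb away. TP63 is long, 300.531 kb, and its window is correspondingly wide.

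Inside TP63, the site from 189690436 to 189691301 on chromosome 3 was in all 8 induced lists and in no ASPC1 list. The authors' fold enrichment there was 29.9 and 28.7 with Panc10.05 P1-α2, 24.2 and 24.9 with Panc10.05 P2-α8, 29.5 and 19.2 with BxPC3 P1-α2, and 11.7 and 15.3 with BxPC3 P2-α8. The percentiles were 89.8, 84.0, 89.3 and 92.3 in the Panc10.05 lists and 96.1, 91.1, 67.1 and 94.1 in the BxPC3 lists. Together with the site upstream of KRT5, it is one of the pair found in every induced list and absent from ASPC1, and it ranked higher by fold enrichment than the KRT5 site in each of the 8 lists.

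The ASPC1 counterpart lay further into the gene, from 189772744 to 189773692. In the 6 ASPC1 pan lists its percentiles were 93.8 and 88.1 with sgNC, 98.4 and 84.9 with sgP1, and 90.8 and 91.4 with sgP2. The fold enrichment there was 23.9 and 15.1 with sgNC, 31.5 and 13.3 with sgP1, and 18 and 18.9 with sgP2. The P1 antibody found it with sgP2 at percentiles 19.5 and 60.9 and did not find it with sgNC. Among the induced lists it appeared in BxPC3 P2-α8 replicate 2 alone, at 3.68. The guides did not separate at this site, since the sgNC values lay within the range of the sgP1 values.

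Of the other sites inside TP63, those from 189685754 to 189687115 and from 189722013 to 189722767 were each in 7 induced lists and in 1 ASPC1 list, sgNC replicate 1, at 38 in both cases. At the first, the percentiles were 85.2, 85.0, 82.7 and 56.2 in Panc10.05, 87.8 and 54.6 with BxPC3 P1-α2, and 63.7 in BxPC3 P2-α8 replicate 2. At the second they were 44.6, 63.3, 92.3 and 64.7 in Panc10.05, 90.4 and 57.2 with BxPC3 P1-α2, and 67.1 in BxPC3 P2-α8 replicate 2. Sites from 189613708 to 189614162, from 189827193 to 189827650 and from 189851493 to 189852022 were confined to Panc10.05 among the 18 lists. All 3 were present in both P2-α8 lists, at 10.6 and 37.1, at 33.0 and 19.2, and at 40.4 and 77.9, and the last 2 were also in P1-α2 replicate 2, at 18.6 and 7.55. The share of all sites confined to Panc10.05 was not counted.

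The site at the printed TP63 start region, from 189630916 to 189631724, was low-ranking wherever it was called. That region stands before the only TP63 transcript start examined, which lies inside the span of the gene. It stood at percentiles 5.74 and 10.5 with BxPC3 P1-α2, 31.3 in BxPC3 P2-α8 replicate 2, 14.4 in ASPC1 sgNC replicate 1, 7.90 in sgP1 replicate 1 and 1.83 in sgP2 replicate 2. It was in no Panc10.05 list. Among the groups, only BxPC3 P1-α2 had it in both libraries.

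Below TP63, 2 sites, 30.0 and 24.3 kb from the gene, were found in induced lists and no ASPC1 list. The site from 189566337 to 189566943 was at 74.5, 42.9, 63.6 and 89.2 in the 4 BxPC3 lists, and in Panc10.05 it was present with P2-α8 alone, at 63.4 and 54.7. The site from 189572187 to 189572708 was at 51.7, 62.1, 43.5 and 18.4 in the Panc10.05 lists, at 81.8 and 46.1 with BxPC3 P1-α2 and at 39.5 in BxPC3 P2-α8 replicate 2.

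Above TP63, the site from 189937285 to 189938330 lay 40.5 kb from TP63 and 18.9 kb from P3H2, a collagen-modifying enzyme gene. It was in 16 of 18 lists, all 14 pan lists and both sgP2 lists of the P1 antibody. Its percentiles were 68.2, 71.0, 76.9 and 68.0 in Panc10.05, 93.2, 23.9, 60.5 and 18.2 in BxPC3, 87.8 and 72.5 with sgNC, 43.6 and 52.1 with sgP1, 75.9 and 79.7 with sgP2, and 6.98 and 20.8 with the P1 antibody in sgP2. The sgP1 values were below the sgNC and sgP2 values without overlap. The authors' fold enrichment there was 6.3449 and 6.9985 with sgP1, 17.2 and 9.87 with sgNC, and 11.1 and 12.1 with sgP2, also without overlap. Percentiles come from lists of different length and cannot by themselves establish a change in binding. The difference between the guides at this site was not tested. How large a share of all sites separates the guides in this way was not counted. Nearby, the site from 189941653 to 189942136 was present with Panc10.05 P1-α2 at 4.52 and 25.5 and absent with P2-α8. It was also at 49.0 and 14.4 with BxPC3 P1-α2, 39.0 in BxPC3 P2-α8 replicate 1, 31.2 in sgNC replicate 1 and 7.83 in sgP2 replicate 2. A further site from 189936170 to 189936502 was in both BxPC3 P1-α2 lists, at 7.24 and 41.1, and in no other.

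**Figure D3:**
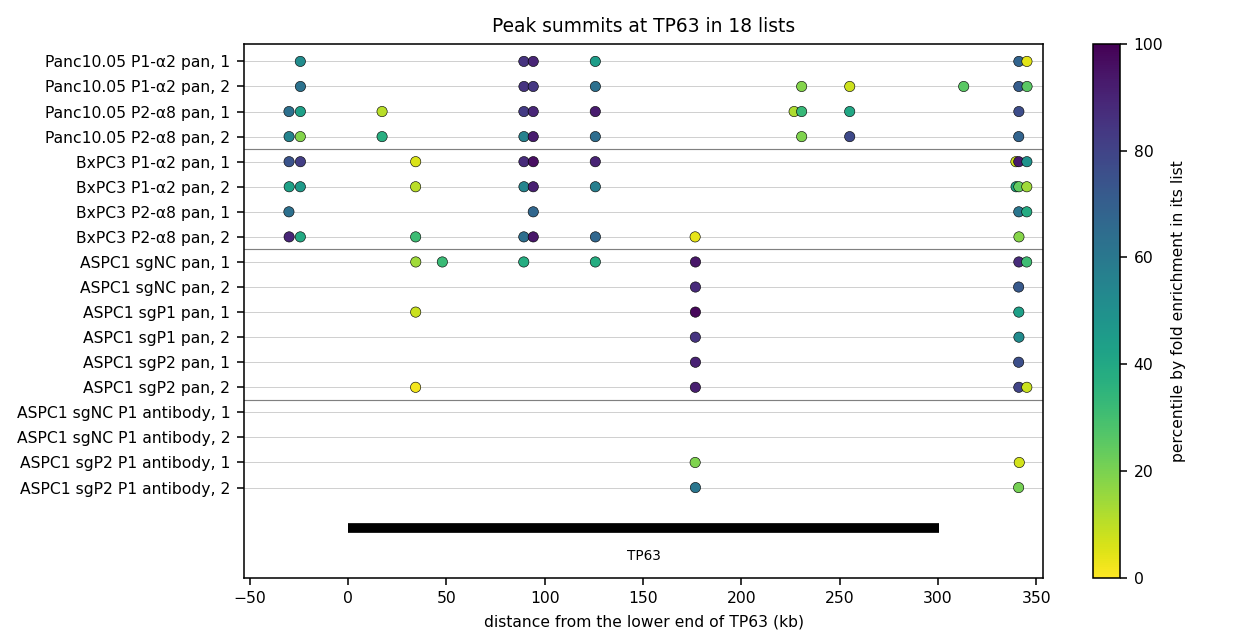
Peak summits at TP63 in the 18 lists, by distance in kb from the lower end of the gene; 1 row is 1 library, colour gives the percentile by fold enrichment in its list, and the bar is the span of TP63. The column near 94.1 kb holds all 8 induced lists, the column near 176.597 kb holds all 6 ASPC1 pan lists, and the column at 341.063 kb holds 16 lists.

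KRT14 and KRT17, on chromosome 17, had few peaks in any list. There were 1 and 3 with Panc10.05 P1-α2, 3 and 2 with Panc10.05 P2-α8, 5 and 3 with BxPC3 P1-α2, and 0 and 0 with BxPC3 P2-α8. ASPC1 pan lists held 6 and 1 peaks with sgNC, 2 and 2 with sgP1, and 1 and 3 with sgP2, and the P1 antibody lists held 0. KRT14 and KRT17 thus had a peak in both BxPC3 P1-α2 lists and in neither BxPC3 P2-α8 list, as did 16.5% of protein-coding genes. Of the 10 sites, 5 were in both libraries of at least 1 group, a property not counted over all sites, and none of those lay inside KRT14 or KRT17.

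The most regular of them was found in ASPC1 alone. The site from 41648292 to 41648960, 24.1 kb from KRT17, was in all 6 ASPC1 pan lists and in no induced list. Its percentiles were 74.3 and 60.1 with sgNC, 78.4 and 47.3 with sgP1, and 69.3 and 45.9 with sgP2, and the guides overlapped. Sites in all 6 ASPC1 pan lists and no induced list made up 1.19% of all sites and 1 of the 50 at these loci.

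The other 4 recurrent sites at KRT14 and KRT17 were present in induced lists. The site from 41640065 to 41640685, 15.7 kb from KRT17 and next to the pseudogene KRT42P, was at 9.64, 46.5, 38.2 and 27.6 in Panc10.05 and at 47.7 and 67.2 with BxPC3 P1-α2. It was absent with BxPC3 P2-α8, as was the site from 41642261 to 41642723, which was at 63.1 and 14.4 with BxPC3 P1-α2 and in no other list. The site from 41536071 to 41536435, toward the simple-epithelial keratin gene KRT19, was in Panc10.05 alone, at 18.2 in P1-α2 replicate 2 and at 33.7 and 62.2 with P2-α8. The site from 41548784 to 41550064 held 9 peaks of 8 lists across the lines. It was at 26.4 and 1.70 (a pair of peaks) in BxPC3 P1-α2 replicate 1, 1.86 in replicate 2, 40.7 in Panc10.05 P1-α2 replicate 2 and 33.0 in P2-α8 replicate 1. In ASPC1 it was at 3.80 in sgNC replicate 1, 32.5 and 9.51 with sgP1 and 13.7 in sgP2 replicate 2. Inside KRT14, from 41583344 to 41583631, single libraries of ASPC1 sgNC and sgP2 had a peak, at 11.1 and 30.9.

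S100A2, on chromosome 1, lies among other S100 genes, and its peaks were spread over several of them. The lists held 5 and 5 peaks with Panc10.05 P1-α2, 5 and 2 with Panc10.05 P2-α8, 5 and 3 with BxPC3 P1-α2, and 2 and 3 with BxPC3 P2-α8. ASPC1 had 6 and 6 with sgNC, 1 and 5 with sgP1, and 4 and 4 with sgP2 by the pan antibody. The P1 antibody gave 1 and 0 with sgNC and 1 and 1 with sgP2. None of the 12 sites had its summits inside the span of S100A2.

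Beside S100A2, the nearest recurrent site, from 153566262 to 153566989 and 0.772 kb from the gene, was in 10 lists. In ASPC1 its percentiles were 72.8 and 59.4 with sgNC, 19.1 in sgP1 replicate 2, and 34.2 and 44.8 with sgP2. In the induced lines it was at 13.8 and 58.9 with Panc10.05 P1-α2, 34.1 in P2-α8 replicate 1, and 50.3 and 2.24 with BxPC3 P1-α2, and it was absent with BxPC3 P2-α8. A site 1.99 kb from the gene, from 153567534 to 153568165, marked BxPC3. It was at 71.2, 76.2, 71.9 and 70.8 in the 4 BxPC3 lists, in no Panc10.05 list, and at 10.8 in ASPC1 sgNC replicate 2. Sites in all 4 BxPC3 and no Panc10.05 list made up 2.09% of the sites of the induced lists and 1 of 40 at these loci. The next site, from 153568432 to 153568829, was in both ASPC1 sgNC pan lists, at 6.89 and 27.3, and in no other list.

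The neighbouring S100 genes carried the rest. The site inside S100A16, from 153608242 to 153609830 and 43.1 kb from S100A2, was in 17 of 18 lists, absent only from replicate 2 of sgNC with the P1 antibody. Its percentiles were 92.5, 86.0, 96.5 and 92.6 in Panc10.05, 99.1, 82.5, 93.5 and 62.1 in BxPC3, 97.0 and 93.3 with sgNC, 93.5 and 87.8 with sgP1, and 97.2 and 97.3 with sgP2. With the P1 antibody they were 27.8 in sgNC replicate 1 and 85.1 and 92.1 with sgP2. This and the site beyond TP63 were the 2 sites present in 16 or more of the 18 lists, a property of 1.95% of all sites. At the S100A6 start, the site from 153535753 to 153536504 was mainly in ASPC1, at 50.9 and 22.1 with sgNC, 14.2 in sgP1 replicate 2, and 24.5 and 35.2 with sgP2, and at 6.07 in Panc10.05 P1-α2 replicate 1. The site from 153596974 to 153597749 was at 75.5, 62.1, 46.2 and 56.0 in Panc10.05, 63.0 in BxPC3 P1-α2 replicate 1 and 51.7 in BxPC3 P2-α8 replicate 2. The site by S100A3, from 153549257 to 153549760, was at 50.2 and 54.8 with Panc10.05 P1-α2, 29.2 in P2-α8 replicate 1 and 8.95 in BxPC3 P1-α2 replicate 1.

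**Figure D4:**
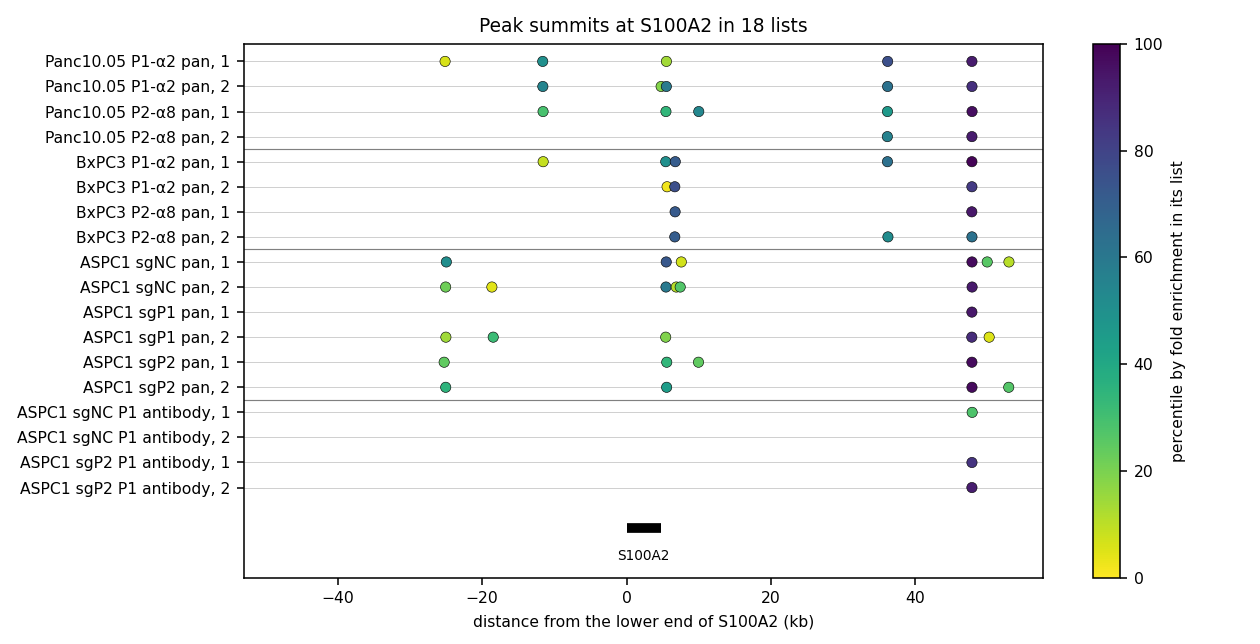
Peak summits at S100A2 in the 18 lists, by distance in kb from the lower end of the gene; 1 row is 1 library, colour gives the percentile by fold enrichment in its list, and the bar is the span of S100A2. The column at 47.8 kb, inside S100A16, is filled in 17 lists, and the column at 6.73 kb holds all 4 BxPC3 lists.

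The isoforms were compared within each line. In Panc10.05 they were induced with different doxycycline doses, so isoform and dose cannot be told apart there. In Panc10.05, the 6 genes had 20 ± 5.66 peaks with P1-α2 and 25 ± 4.24 with P2-α8 (SD, n = 2), a difference of -5 (two-sided exact permutation test, p = 0.667, adjusted p = 0.8 by Benjamini-Hochberg over 6 comparisons). The ranges overlapped, and at equal list lengths the difference was -1.5. Of 33 sites in these lists, 12 were in all 4, against 38.1% of all sites. The site above TP63 from 189941653 was the only one in both P1-α2 lists and neither P2-α8 list (3.63% of all sites). The reverse held for 5 sites, 15.2% of the 33 against 10.9% of all sites. These were the TP63 sites from 189566337 and 189613708, the KRT6A site from 52494349, and the KRT5 sites from 52518398 and 52537398.

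In BxPC3, the 6 genes had 25 ± 2.83 peaks with P1-α2 and 11.5 ± 3.54 with P2-α8 (SD, n = 2). The difference was 13.5 (two-sided exact permutation test, p = 0.333, the smallest that 2 against 2 libraries allow, adjusted p = 0.8), and the libraries did not overlap. The P1-α2 lists held 41808 and 33737 peaks in all, and the P2-α8 lists 12681 and 14666. With the 4 lists cut to equal length by fold enrichment the difference turned to -1.5. Of 28 sites in these lists, 7 were in all 4, against 18.4% of all sites. In both P1-α2 and neither P2-α8 list were 8 sites, 28.6% against 28.3% of all sites, so the share at these genes was that of the whole list. They included the sites inside KRT5 and beside S100A2 from 153566262. In both P2-α8 and neither P1-α2 list were 0 sites, against 0.13% of all sites.

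P1-α2 minus P2-α8 was 13.5 peaks in BxPC3 and -5 in Panc10.05, opposite in direction. BxPC3 minus Panc10.05 of these signed differences was 18.5 (two-sided exact permutation test within lines, p = 0.111, smallest possible 0.0556), and with equal list lengths it was -1. Without regard to isoform, BxPC3 had 18.25 ± 8.22 and Panc10.05 22.5 ± 5 peaks (SD, n = 4), a difference of -4.25 (two-sided exact permutation test, p = 0.4), which became 2.5 at equal list lengths. Neither comparison between lines can tell the line from the doxycycline dose, which also differed.

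In ASPC1 the guides were compared with the pan antibody. The 6 genes had 14 ± 7.07 peaks with sgNC, 8 ± 1.41 with sgP1 and 9 ± 2.83 with sgP2 (SD, n = 2). Both comparisons with a guide share the sgNC libraries. The differences from sgNC were -6 with sgP1 and -5 with sgP2 (two-sided exact permutation tests, p = 0.667 and adjusted p = 0.8 for each), and sgP1 differed from sgP2 by -1 (exact permutation p = 1). The sgNC value rests on replicate 1, whose list was the longest of the line at 24295 peaks. Without it the differences were -1 and 0, and at equal list lengths they were 1.5 and 0.5. The sites in all 6 ASPC1 pan lists were 4: the TP63 site from 189772744, the site beyond TP63 from 189937285, the site near KRT17 from 41648292 and the S100A16 site. What share of all sites was in all 6 was not counted. The site from 153568432 by S100A2 was the only one in both sgNC lists and neither list of a guide, which is 1 of 22 sites (9.06% of all sites for sgP1 and 7.27% for sgP2). It was a weak call, with −log10 q of 3.98 and 6.89 in the sgNC lists. Of the sites found in either group, 4 of 22 were in all 4 lists of sgP1 and sgNC (32.4% of all sites) and 6 of 22 in all 4 lists of sgP2 and sgNC (34.4%). Between sgP1 and sgP2, 4 of 15 sites were in all 4 lists (38.7%) and 0 were specific to either guide (2.76% of all sites for sgP1 and 4.39% for sgP2). No site at these genes was in both lists of sgP1 and neither of sgNC (0.408% of all sites) or in both lists of sgP2 and neither of sgNC (0.414%). At equal list lengths the sgP1 comparison changed side, with 1 site specific to sgP1 and 0 to sgNC, and the sgP2 comparison had 0 on either side.

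The P1 antibody gave 3 ± 0 peaks at the 6 genes in ASPC1 sgP2 and 0.5 ± 0.707 in sgNC (SD, n = 2). The difference was 2.5 (two-sided exact permutation test, p = 0.333, the smallest possible, adjusted p = 0.8), without overlap. The sgP2 lists held 5200 and 3916 peaks in all and the sgNC lists 697 and 260, and at equal list lengths the difference was 0. The 3 sites found with sgP2 were the ones inside TP63 from 189772744, beyond TP63 from 189937285 and inside S100A16. The first 2 were in no sgNC list of this antibody, 2 of 3 sites against 36.5% of all sites. In both sgNC and neither sgP2 list were 0 sites (0.0655% of all sites), and in all 4 lists 0 (3.14%). Counted by gene, TP63 was the member with a peak in both sgP2 lists and neither sgNC list, as were 17.1% of protein-coding genes. All 3 were also in both sgP2 pan lists, as were 98.8% of the 2873 sites found in both sgP2 lists of the P1 antibody, so the members did as nearly all such sites did. KRT5, KRT6A, KRT14 and KRT17 had no peak with the P1 antibody.

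Counted by gene, a peak within 50 kb in both libraries was common in the induced lines, also for genes outside the program, though less so with BxPC3 P2-α8. With Panc10.05 P1-α2 it was so for 5 of the 6 members, KRT14 being the exception, against 74.5% of protein-coding genes, and with Panc10.05 P2-α8 for 6 against 79.5%. With BxPC3 P1-α2 it was so for 6 against 76.6%, and with BxPC3 P2-α8 for 4 against 45.4%. In ASPC1 the pan antibody gave 3 members with sgNC against 58.5%, 4 with sgP1 against 50.6% and 3 with sgP2 against 52%. The P1 antibody gave 0 members with sgNC against 2.31% and 2 with sgP2 against 23.7%. The latter were TP63 and S100A2, S100A2 only through the site inside S100A16. A peak in all 8 induced lists was found for 4 members, TP63, KRT5, KRT6A and S100A2, against 41.6% of protein-coding genes, and in all 6 ASPC1 pan lists for 3, TP63, KRT17 and S100A2, against 45.7%. With 6 members, 1 gene is a large step in such a share, and the members' shares are read as a description beside the background.

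Other genes of the program were taken from a list of 40 basal and squamous genes and set beside 25 genes of the classical program. The list was chosen from general knowledge, with earlier results of these data known. Of the 40, a peak in both libraries was found for 33 with Panc10.05 P1-α2, 36 with Panc10.05 P2-α8, 37 with BxPC3 P1-α2 and 24 with BxPC3 P2-α8. In ASPC1 it was found for 23 with sgNC, 16 with sgP1 and 19 with sgP2. Of the 25 classical genes the corresponding numbers were 19, 20, 21 and 17 in the induced groups and 21, 18 and 18 in ASPC1. In the induced groups the basal share was 82.5% with Panc10.05 P1-α2 (74.5% of all genes), 90% with Panc10.05 P2-α8 (79.5%), 92.5% with BxPC3 P1-α2 (76.6%) and 60% with BxPC3 P2-α8 (45.4%). In ASPC1 it was 57.5% with sgNC (58.5%), 40% with sgP1 (50.6%) and 47.5% with sgP2 (52%). The sgNC share was less than 1 gene from the background. The classical share was 84%, 72% and 72% in these ASPC1 groups, whereas with Panc10.05 P1-α2 (76%) and P2-α8 (80%) it was less than 1 gene from the background. In BxPC3 the classical share was 84% with P1-α2 (76.6% of all genes) and 68% with P2-α8 (45.4%). With BxPC3 P2-α8 it was thus above the basal share of 60%. The difference between the lists was not tested.

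The pattern of KRT5 and KRT6A, a peak in all 8 induced lists and in at most 1 ASPC1 pan list, was shared by 7 of the 40 genes, by 1 of the 25 classical genes, FAM3D, and by 992 of all 20037. The 7 were KRT6B and KRT6C, whose windows overlap that of KRT6A, the cornified envelope genes SPRR3, SPRR1B and IVL, the keratinocyte transcription factor BNC1, and S100A8, an inflammatory S100 protein. Genes were counted singly here, and neighbouring genes can share peaks, so these 7 genes are not 7 separate loci. IVL, which encodes involucrin, had 3, 4, 3 and 4 peaks in Panc10.05, 8, 6, 2 and 2 in BxPC3, and 0 in every ASPC1 list. SPRR3 had 2, 2, 4 and 4 in Panc10.05, 7, 7, 2 and 4 in BxPC3, and 0 in every ASPC1 list. In contrast DSG3, which encodes a desmosomal cadherin of squamous epithelium, had 8 and 4 peaks with sgNC, 4 and 3 with sgP1, 3 and 3 with sgP2, and 2 to 5 in each induced list. Absence from ASPC1 was therefore not a property of all genes of this program.

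**Figure D5:**
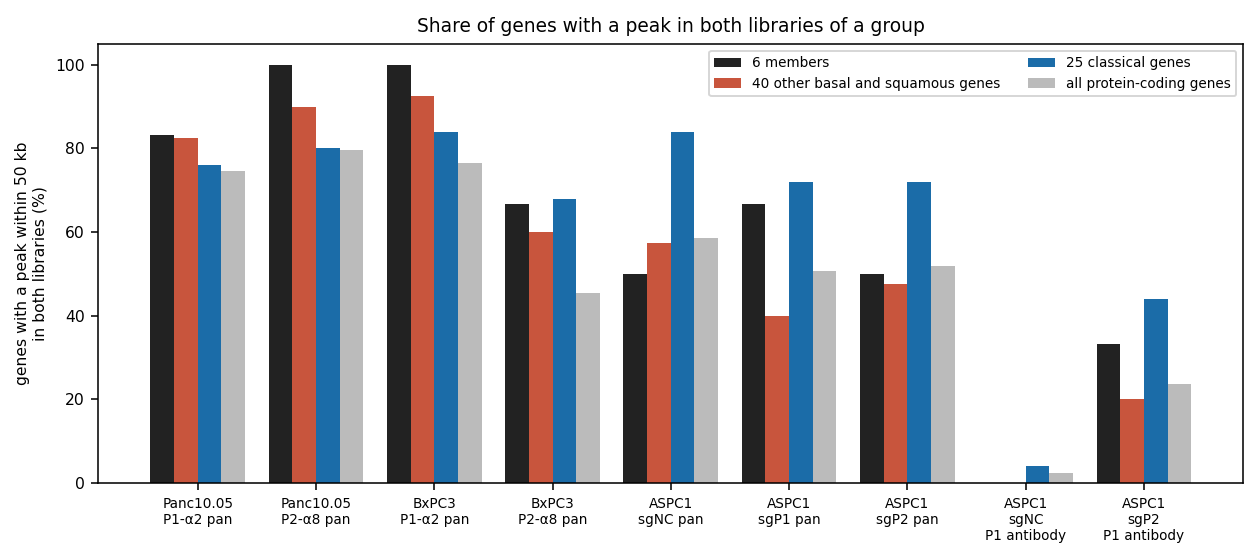
Share of genes, in percent, with a peak within 50 kb in both libraries of each of the 9 groups, for the 6 members, 40 other basal and squamous genes, 25 classical genes and all 20037 protein-coding genes; bars start at 0 and have no error, being counts over genes. The classical bar is the tallest in the 3 ASPC1 pan groups, in both P1 antibody groups and with BxPC3 P2-α8. With BxPC3 P2-α8 it is at 68, against 66.7 for the members. With BxPC3 P1-α2 and Panc10.05 P2-α8 the member bar is at 100.

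The genes whose peak numbers over the 18 lists were most like those of TP63, the member with the most peaks, were DOLPP1 (Pearson r = 0.975), GAB2 (0.971), CAMTA1 (0.970), CRAT (0.969) and LSAMP (0.969), of 12165 genes compared on log2(peaks + 1). These correlations share the length of the lists and are given as a description. At the edge of the 50 kb rule, the outermost peaks counted lay 44.7 kb from TP63, 45.9 kb from KRT6A, 46.1 kb from KRT14 and 48.2 kb from S100A2. The nearest peaks left out lay 61.5 kb, 50.2 kb, 51.3 kb and 50.7 kb from the same loci, and the one at 51.3 kb belonged to a region found in 14 lists.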

How the data were processed

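HNF4α ChIP-seq peak lists of 18 libraries in 3 cell lines were analysed. Cells were crosslinked with disuccinimidyl glutarate and formaldehyde, per the labels' protocols. Bowtie2 2.2.9 and MACS2 2.2.7 and the builds hg38 and mm10 are named, with no role, in the submitters' processing notes. The human build was tested on the lists: 5.60% to 19.1% of summits lay within 1 kb of a RefSeq start, against 1.15% to 3.93% after a shift of 100 kb, higher in 18 of 18 lists. Peaks were called by the authors in each library separately. The deposited lists give each peak a fold enrichment (a ratio on a linear scale), a −log10 p-value, a −log10 q-value and a whole-number score. They are the authors' own values and were used to rank, filter or describe peaks within a list. Read depth is unknown, so no counting interval is given, and differences between list lengths cannot be told apart from depth.

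From the lists, summits were placed by coordinate within 50 kb of RefSeq gene spans, peaks overlapping by 1 bp or more were merged into sites, and peak numbers were compared by two-sided exact permutation over libraries (Python 3.11.15, pandas 2.3.3, numpy 2.4.6). The counting and merging were tested on simulated lists. All 6 genes are named, and every site in both libraries of at least 1 group is described with its values. Exons and introns were not annotated. The members, the lists and the rules were chosen with earlier results of these data known. Same-numbered libraries were not taken as pairs. The alternatives tried were a 10 kb window, any overlap of a peak with the window, q limits, equal list lengths, ranking by p, a summit distance of 150 bp, and leaving out each library. Input libraries were not used here.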

Additional observations from a re-analysis of the deposited data

Results flagged for a closer look

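The isoform difference in peaks within 50 kb of KRT5 ran in opposite directions in the lines, P1-α2 minus P2-α8 being -3.5 in Panc10.05 and 3.5 in BxPC3, 7 apart. For KRT6A it was -4 and 3.5, 7.5 apart. The site inside KRT5 on chromosome 12 from 52518398 was absent with P1-α2 and present with P2-α8 in Panc10.05 (-1 peak per library) and the reverse in BxPC3 (1), 2 apart. All libraries of a line moved in the same direction in each case, and these 3 differences were not tested. How large a share of all protein-coding genes shows such opposite directions was not counted. For the combination at the site it was 0.832% of the sites of the induced lists. Doxycycline dose differed between the isoforms in Panc10.05 and between the lines, so it cannot be told apart from either. The KRT5 and KRT6A counts share peaks, and the BxPC3 P2-α8 lists were the shortest of the induced lists. With all 8 lists cut to equal length by fold enrichment, which was tried after seeing these values, the opposite directions were lost for KRT5 (-1 in Panc10.05 and 0 in BxPC3, 1 apart) and for the site (0 and 1, 1 apart). For KRT6A they were -2 and 0.5, 2.5 apart. A cut to equal length only within each line was also tried after seeing these values. It gave -2 and 0 for KRT5, 2 apart, and again -2 and 0.5 for KRT6A. For the site it gave -0.5 and 1, 1.5 apart, so under this cut the site kept its opposite directions.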

How the results depend on the processing

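Differences in peaks at the 6 genes kept their direction with a 10 kb window, with any overlap, and with −log10 q of at least 8 or 20. With lists cut to equal length by fold enrichment, they were -1.5 for BxPC3 isoforms, 1.5 for sgP1 against sgNC, 0.5 for sgP2 against sgNC, 0 for sgP1 against sgP2, 0 for the P1 antibody, 2.5 between the induced lines and -1 for the isoform difference between lines. For Panc10.05 isoforms the difference shrank from -5 to -1.5 with the same direction. Leaving out each library gave -9 to -1 for Panc10.05 isoforms, 11 to 16 for BxPC3 isoforms, -11 to -1 for sgP1 against sgNC, -10 to 0 for sgP2 against sgNC (0 without sgNC replicate 1), -3 to 1 for sgP1 against sgP2 (1 without sgP2 replicate 2, 0 without sgP1 replicate 1), 2 to 3 for the P1 antibody, -7.17 to -1.17 between lines and 14.5 to 22.5 for the isoform difference between lines. Cutting the lists and leaving out libraries only recounted the peaks under other settings, and no cause was tested.

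Sites in both libraries of 1 group and neither of the other numbered 6 for Panc10.05 isoforms, 8 for BxPC3 isoforms, 1 for sgP1 against sgNC, 1 for sgP2 against sgNC, 0 for sgP1 against sgP2 and 2 for the P1 antibody. Within 10 kb they numbered 3 for Panc10.05, 2 for BxPC3 and 1 for the P1 antibody. At −log10 q of at least 8 they numbered 0 for sgP2 against sgNC, 2 for sgP1 against sgP2 and 1 for the P1 antibody. At 20 or more they numbered 3 for BxPC3, 0 for sgP2 against sgNC, 1 for sgP1 against sgP2 and 1 for the P1 antibody. At equal length they numbered 1 for sgP1 against sgNC, now on the sgP1 side, 2 for BxPC3, 0 for sgP2 against sgNC, 1 for sgP1 against sgP2 and 0 for the P1 antibody. With summits within 150 bp they numbered 0 for either guide against sgNC, 1 for sgP1 against sgP2 and 1 for the P1 antibody. Leaving out each library gave 8 to 12, 9 to 13, 1 to 10, 1 to 8, 2 to 3 and 2 to 3, in the order first given. Ranking by −log10 p moved 18 of 87 group percentiles by more than the replicate spread, with a median shift of 3.23 and a largest of 23.5, at the site upstream of KRT5 with Panc10.05 P2-α8.

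Same-numbered libraries deviated together with correlations from -0.0694 to 0.0674, and no pairing by number was assumed. With the replicate number as a block the differences were the same by construction, -5 for Panc10.05, 13.5 for BxPC3, -6 and -5 for the guides against sgNC, -1 for sgP1 against sgP2, 2.5 for the P1 antibody, -4.25 between lines and 18.5 for the isoform difference, with exact permutation p from 0.25 to 1.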
